A study of Drosophila melanogaster with 2 samples.

Results

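The genes described here are 39 genes of the synapse and of neuronal excitability, taken from a written list of symbols and looked up by exact symbol in the Ensembl annotation of the fly genome. All 39 were found, among 13945 protein-coding genes on the 6 main chromosome arms. They comprise 11 ion channel genes, 15 genes of transmitter release and the vesicle cycle, 8 transmitter genes (synthesis, vesicular transport and receptors) and 5 genes of adhesion, the cytoskeleton and the synaptic scaffold. The question put to each was whether the zinc finger and homeodomain protein Zfh2 was found on or near it.

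The protein was mapped by ChIP-seq, the sequencing of DNA precipitated with a chromatin protein, in whole *Drosophila melanogaster* embryos, males and females pooled, collected from 0 to 24 hours of development. The embryos came from a transgenic line that stably expresses zfh2 with GFP at its C terminus (zfh2-eGFP), and the fusion was precipitated with an antibody against GFP from chromatin sonicated to 200 to 800 bp. There were 2 libraries, biological replicates 1 and 2, in 1 group. With 1 group, no contrast could be tested, and every count below is a description. A whole embryo holds many tissues of which the nervous system is one, so a call does not say in which cells or at which stage the protein was bound, and a site bound in few cells cannot be told apart from a weak site.

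Neurons fire by opening and closing voltage-gated sodium, calcium and potassium channels, and they pass the signal on when calcium entry makes synaptic vesicles fuse with the membrane. SNARE proteins drive that fusion, active zone scaffolds hold vesicles and calcium channels together, and an endocytic machinery retrieves the membrane afterwards. Acetylcholine is the main excitatory transmitter of the fly central nervous system, glutamate acts at the neuromuscular junction and GABA is inhibitory. Zfh2 itself is best known from the embryonic nervous system and from the wing and leg.

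The sequences under the 6 strongest summits that could be shown are given first, since they are the places at these genes where the fusion was called most strongly outside the arm whose sequence is not printed here. Each is a summit with 75 bp on either side, on the plus strand of the dm6 assembly (NCBI RefSeq), read 5′ to 3′. Capitals mark a match to 1 of 8 short words searched on both strands, and a window without capitals held none of them.
dlg1 chrX:11390715-11390865: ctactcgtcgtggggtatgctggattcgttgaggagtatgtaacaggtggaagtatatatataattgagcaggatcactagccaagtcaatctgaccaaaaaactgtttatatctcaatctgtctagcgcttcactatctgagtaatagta
ChAT chr3R:18719908-18720058: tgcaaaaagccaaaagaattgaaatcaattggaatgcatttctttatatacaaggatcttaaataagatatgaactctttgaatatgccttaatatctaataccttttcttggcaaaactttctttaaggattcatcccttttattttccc
unc-13 chr4:867035-867185: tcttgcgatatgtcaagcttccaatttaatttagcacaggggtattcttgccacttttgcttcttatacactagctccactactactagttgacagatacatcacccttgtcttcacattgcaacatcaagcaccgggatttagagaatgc
dlg1 chrX:11384250-11384400: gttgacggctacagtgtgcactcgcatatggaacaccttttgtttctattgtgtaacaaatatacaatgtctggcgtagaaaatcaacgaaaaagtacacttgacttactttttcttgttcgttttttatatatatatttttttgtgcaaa
dlg1 chrX:11390924-11391074: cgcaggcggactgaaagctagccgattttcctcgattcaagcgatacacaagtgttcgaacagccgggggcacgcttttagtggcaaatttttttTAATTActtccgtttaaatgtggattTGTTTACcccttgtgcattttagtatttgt
EndoA chr3R:18906458-18906608: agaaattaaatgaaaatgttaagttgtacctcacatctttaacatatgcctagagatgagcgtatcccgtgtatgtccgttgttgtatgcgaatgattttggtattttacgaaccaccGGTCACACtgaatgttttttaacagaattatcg
The first lies just inside a start site of *dlg1*, the second in an intron of *ChAT*, and the third past the 3′ end of *unc-13*, in front of the neighbouring gene *Gyf*. The next lines are further summits in introns of *dlg1*, and the last is the promoter of *EndoA*. Of these 6 windows, 2 held a word: the third *dlg1* window had the homeodomain core word TAATTA and the forkhead word TGTTTAC, and the *EndoA* promoter had GGTCACAC, part of a core promoter motif bound by M1BP.

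Peaks were read from the list that passed the irreproducible discovery rate (IDR), a procedure based on how alike calls rank in the 2 replicates. That list held 4344 peaks, which were the 4344 strongest calls of the pooled replicates. A single peak in it need not rank alike in both. The peak at *Rop* ranked 3522 in replicate 1 and 6629 in replicate 2, and a peak at *Syx1A* ranked 5911 and 2498. A peak was given to each gene whose body, or the 1 kb on either side of it, held the summit. By this rule 15 of the 39 genes (38.5%) carried an IDR peak, against 33.4% of all protein-coding genes. They were *KCNQ*, *Ih*, *sei* and *Shab* among the channels, *unc-13*, *EndoA*, *Syx1A*, *Dap160*, *Csp*, *shi* and *Rop* among the release and vesicle genes, *ChAT* and *Nmdar1* among the transmitter genes, and *dlg1* and *Nrg* among the others. The channels thus had 4 of 11 (36.4%), release and vesicle genes 7 of 15 (46.7%), transmitter genes 2 of 8 (25%) and adhesion, cytoskeleton and scaffold genes 2 of 5 (40%). No test was made between these classes.

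Gene length changes how these counts read. The 39 genes had a median length of 24384 bp, from 2638 bp for *Rop* to 138941 bp for *Sh*, while the median over all protein-coding genes was 2166 bp. Of the 39, 23 were in the decile of longest genes, which begins at 14627 bp. Adding up, for each of the 39, the share of genes in its own length decile that carried an IDR peak gave a sum of 19.2, above the 15 counted. The same sum was 5.59 for the channels (4 counted), 7.18 for release and vesicle genes (7 counted), 3.84 for transmitter genes (2 counted) and 2.59 for the rest (2 counted). The count was below the sum in every class, by least for release and vesicle genes and by most, relative to the sum, for transmitter genes.

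Over the genome the share of genes with a peak rose with length. Among the 39 it fell, but among 100 further genes of the same roles, described below, it did not: their shares were 35% under 5 kb, 24.2% from 5 to 20 kb, 42.1% from 20 to 40 kb and 42.9% at 40 kb and over. Among genes under 5 kb, 3 of 5 carried a peak (60%), against 28.2% of all protein-coding genes of that length. From 5 to 20 kb it was 5 of 13 (38.5%) against 47.5%, and from 20 to 40 kb 3 of 8 (37.5%) against 51.1%. At 40 kb and over it was 4 of 13 (30.8%) against 53.1%. The short genes with a peak were *Rop*, *EndoA* and *Syx1A*, all in the release and vesicle class. The long genes without one included *Sh*, *para*, *Fas2*, *eag*, *cac* and *slo*. Groups of this size move by many percent with 1 gene, and no test was made of the trend.

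**Figure D1:**
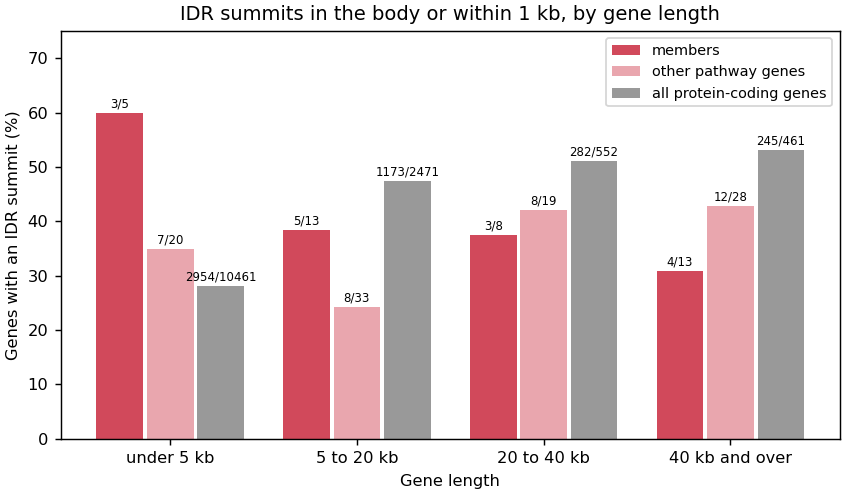
Percent of genes with an IDR summit in the body or within 1 kb (y axis) in 4 classes of gene length (x axis) for the 39 genes, the 100 other genes of the pathway and all protein-coding genes, with the counts over the bars. The share over all genes rises from 28.2% under 5 kb to 53.1% at 40 kb and over, that of the 39 genes falls from 60% to 30.8%, and that of the 100 other genes goes from 35% to 42.9%.

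The 15 genes held 25 IDR summits, and most were weak for this list. The signal value is the peak caller's own score and ranks peaks within a list. Over the 25 summits its median was 87.85, against 113.1 over all 4344 peaks, and 6 of the 25 (24%) lay above that overall median. Values ran from 65.35 at *Rop* to 413.4 at *KCNQ*, in a list that spans 64.88 to 2951. When the list was restricted to its strongest 2172 peaks, 4 genes remained with a peak, *KCNQ*, *unc-13*, *ChAT* and *dlg1*. They were 10.3% of the 39, against 20.6% of all protein-coding genes, and the sum over length deciles was 12. Each of the 25 summits had a call within 200 bp in both replicates. Of the 25, 22 ranked within the first 4344 calls of replicate 1 and 19 within the first 4344 of replicate 2.

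**Figure D2:**
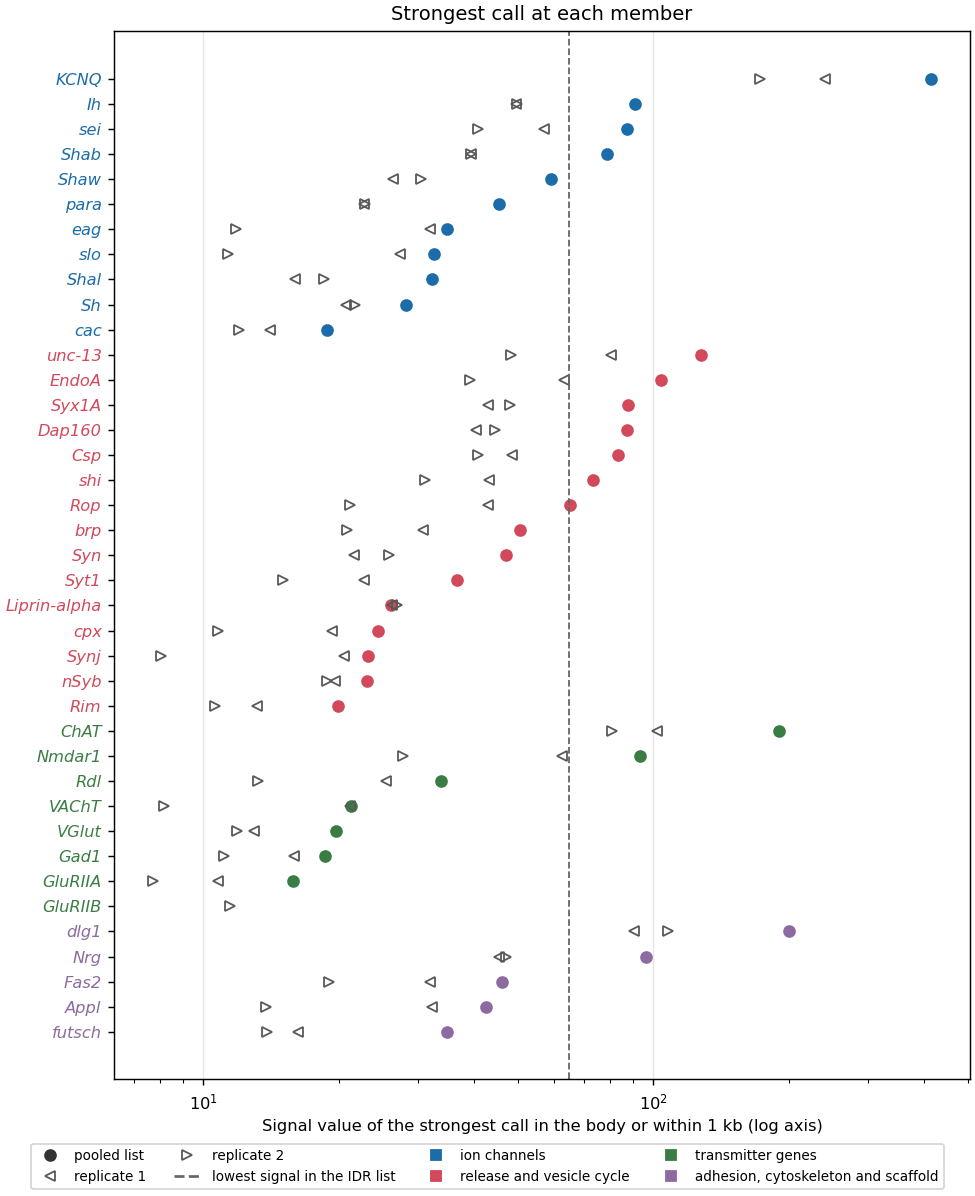
Signal value of the strongest call in the body or within 1 kb (x axis, log scale) at each of the 39 genes (y axis, grouped by role), in the pooled list (filled circles) and in each replicate (triangles), with the lowest signal of the IDR list as a dashed line. In the pooled list the 15 genes with an IDR peak lie right of the line by construction, *KCNQ* furthest at 413.4, and *GluRIIB* has no pooled call.

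Not every one of these summits was nearest to a start of the gene it was counted for. The nearest transcription start site (TSS) of any gene was the member's own for 13 of the 25 summits and another gene's for 12. At 8 genes the member owned the nearest TSS of at least 1 summit (20.5%, against 22.4% of all protein-coding genes), where the sum over length deciles was 14.8. They were *Shab*, *Ih*, *Syx1A*, *Dap160*, *shi*, *EndoA*, *Csp* and *dlg1*. A summit within 500 bp of an own TSS, called a promoter summit here, was also found at 8 genes (20.5%, against 24.6% of all protein-coding genes), and the sum over length deciles was 12.1. These were *Shab* and *sei* among the channels, *Rop*, *Dap160*, *shi*, *EndoA* and *Csp* among release and vesicle genes, and *dlg1*. No transmitter gene was among them.

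By place in the gene, 8 of the 25 summits were promoter summits (32%), 10 lay in introns (40%), 5 upstream beyond the promoter (20%) and 2 past the 3′ end (8%). Over the 6718 pairs of a protein-coding gene and an IDR peak, 58.6% were in the promoter, 19.9% in introns, 6.03% upstream and 14.1% past the 3′ end. These shares were not matched for gene length, and the 39 genes are far longer than most (median 24384 bp against 2166 bp). None of the 25 lay in an exon outside a promoter. Counting the TSS of any gene, 14 of the 25 (56.0%) were within 500 bp of one, against 64.5% of all IDR summits, so 6 of the 25 sat at the start of another gene without being within 500 bp of a start of the member.

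**Figure D3:**
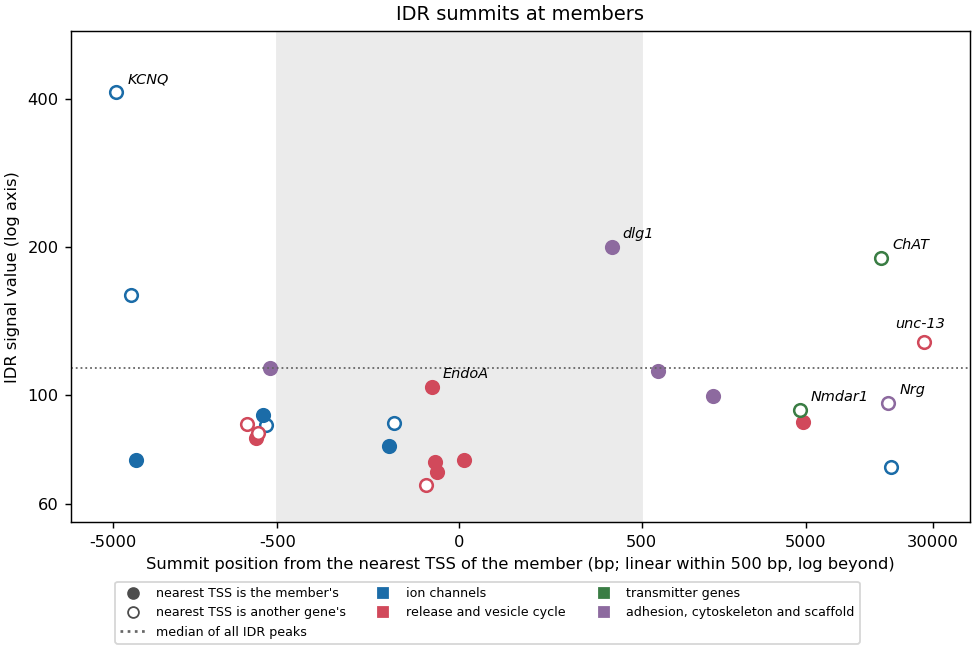
Position of each of the 25 IDR summits from the nearest TSS of the gene it was counted for (x axis, bp, linear within 500 bp and log beyond, shaded within 500 bp) against its signal value (y axis, log scale), coloured by role. Filled points have that gene's own TSS as the nearest of all genes, and open points, including *KCNQ* at 413.4 and *ChAT* at 190.0, have another gene's.

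Among the channels, the strongest summit of the whole set was at *KCNQ*, the fly gene for the slowly gating KCNQ-type potassium channel. The summit at chr2R 10159665 had a signal of 413.4 (rank 194 of 4344), with 241.1 in replicate 1 and 172.6 in replicate 2. Its neighbour at 10158784 had 159.7, with 98.54 and 57.07. Both lay in an intron of *KCNQ*, but the nearest TSS was that of *mlt*, a gene that lies inside *KCNQ* on the same strand: the stronger summit was at −734 and the other at +147 from it. From the nearest start of *KCNQ* they were at −4788 and −3907. *KCNQ* also had the most pooled calls of any channel, 18, with 15 in replicate 1 and 17 in replicate 2.

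The other 3 channels with an IDR peak had weaker summits, all under the list's median. *Shab*, a delayed rectifier potassium channel, had one at −192 from its own TSS (chr3L 2894825; signal 78.73, with 35.86 in replicate 1 and 39.33 in replicate 2) and one in an intron at 2913404, nearest to *CG9970* (71.12, with 39.41 and 30.22). *Ih*, the hyperpolarization-activated cation channel, had one at −613 from its TSS (chr2R 14275517; 91.01, with 40.64 and 49.75) and one in an intron at 14284508 (73.67, with 49.51 and 24.63), and both were nearest to *Ih*. The summits of *sei*, the ERG-type potassium channel named for its seizure mutants, stood between close neighbours. Its summit at −180 from a *sei* TSS (chr2R 24049023; 87.54, with 46.73 and 40.75) was nearer to *gammaSnap1*, at −120, and the summit at −587 (24046824; 86.72, with 57.28 and 31.36) was at −19 from *tsr*, the cofilin gene.

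The 7 channels without an IDR peak included the best-known excitability genes of the fly. The nearest to the threshold was *Shaw*, a potassium channel, with a pooled signal of 59.37 in an intron, 1570 bp inside its TSS (rank 4804; 26.40 in replicate 1 and 30.41 in replicate 2), against 65.35 for *Rop*, the lowest inside. The strongest pooled call of *para*, which encodes the voltage-gated sodium channel of action potentials, was 45.39 (rank 6563) and lay in its 3′ UTR, with 22.78 and 22.92 in the replicates. At *eag*, a potassium channel, the call at −133 from the TSS had 34.72 (rank 8927), with 31.87 in replicate 1 and no call of replicate 2 within 200 bp. For *slo*, the calcium-activated potassium channel, the strongest pooled signal was 32.63, for *Shal* 32.21 and for *Sh*, the Shaker potassium channel, 28.18. The weakest was *cac*, the presynaptic calcium channel, with 18.84 (rank 22437). Every one of the 11 channels thus had a pooled call, and 4 had one in the IDR list.

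Among the genes of release and the vesicle cycle, 5 of the 10 summits were promoter summits, 3 lay upstream and 2 past the 3′ end. *EndoA*, endophilin, which bends membrane at the start of endocytosis, had the strongest at an own start: 103.9 at −76 from its TSS (chr3R 18906533), with 63.43 in replicate 1 and 39.07 in replicate 2. At *shi*, dynamin, the GTPase that cuts vesicles from the membrane, the summit was at +12 (chrX 15892128) with 73.47, 43.20 and 31.12 in the IDR list, replicate 1 and replicate 2. *Dap160*, the intersectin scaffold that works with dynamin, had one at −61 (chr2L 21142408; 69.58, with 34.65 and 37.11), and a stronger one upstream at −765 that was at −117 from *pths* (21143112; 87.33, with 40.31 and 44.42). *Csp*, the cysteine string protein, a vesicle chaperone, repeated this arrangement, with 72.80 at −68 from its own TSS (chr3L 22267500; 48.44 and 22.22 in the replicates) and 83.36 at −656, which is −47 from *CG11523* (22266726; 45.05 and 40.83). At both genes the stronger of the 2 summits was nearer to the TSS of the neighbour.

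The fusion machinery itself gave 2 genes with a peak, *Syx1A* and *Rop*. *Syx1A*, the plasma membrane SNARE syntaxin, had a summit at −672 from its TSS (chr3R 24106435; 81.72, with 29.00 in replicate 1 and 47.96 in replicate 2) and one past its 3′ end (24100918; 87.85, with 42.94 and 41.18). Both were nearest to *Syx1A*, but the gene lies wholly inside *eIF4EHP* on the same strand, so both summits are also within that gene. *Rop*, which encodes the syntaxin-binding Sec1-type protein, had the weakest summit of the set, 65.35 at chr3L 4139088 (rank 4316 of 4344), with 42.95 and 21.23. It lay at −92 from *Rop* and at +12 from *Ras64B*, a Ras-type GTPase gene that starts next to it. The vesicle SNARE *nSyb* had no IDR peak and a strongest pooled signal of 23.08.

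*unc-13*, whose product primes vesicles for fusion, had the strongest summit of the release class, 127.8 (rank 1847; 80.57 in replicate 1 and 48.27 in replicate 2). This summit was at chr4 867110, past the 3′ end of *unc-13*, 26455 bp from its nearest TSS and at −85 from *Gyf*, so it stood at the promoter of the neighbour. The other active zone genes had no IDR peak. The strongest pooled signal was 50.60 at *brp* (Bruchpilot), again past the 3′ end (rank 5764; 30.77 and 20.86 in the replicates), 26.09 at *Liprin-alpha* and 19.93 at *Rim*. At *Syn*, synapsin, a call at −435 had 47.02 (rank 6285; 21.66 and 25.86 in the replicates), and at *Syt1*, the calcium sensor of fast release, a call at −196 had 36.56 (rank 8419; 22.81 and 12.91). The remaining 2, *cpx* (complexin, a regulator of SNARE fusion) and *Synj* (synaptojanin, a lipid phosphatase of vesicle uncoating), reached 24.42 and 23.27.

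The transmitter genes had the lowest count of genes with a peak relative to the sum over length deciles, 2 against 3.84. The strong one was at *ChAT*, choline acetyltransferase, the enzyme that makes acetylcholine. Its summit at chr3R 18719983 had 190.0 (rank 949), with 101.7 in replicate 1 and 80.78 in replicate 2. It lay in an intron 14482 bp from the nearest *ChAT* TSS and 360 bp inside the noncoding gene *lncRNA:CR46265*. *VAChT*, the vesicular acetylcholine transporter, lies inside *ChAT* on the same strand, an arrangement long known as the cholinergic locus. The summit lay just over 1 kb past the end of *VAChT* (18718916), so it narrowly missed counting for *VAChT*, and was within 5 kb of it. The 2 genes share their annotated TSS (18705501). The other was at *Nmdar1*, an NMDA-type glutamate receptor subunit, in a stretch where *Itpr*, the IP3 receptor gene on the other strand, overlaps it (chr3R 5518735; 93.24, with 62.73 and 25.75), and *Itpr* owned the nearest TSS.

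The remaining 6 transmitter genes stood low in the lists. The strongest pooled call of *Rdl*, the GABA receptor channel subunit, was 33.81 at −103 from its TSS (rank 9235), with 25.52 in replicate 1 and no replicate 2 call within 200 bp. For *VAChT* the value was 21.32, for *VGlut*, the vesicular glutamate transporter, 19.69, and for *Gad1*, which makes GABA, 18.65. The muscle glutamate receptor subunits *GluRIIA* and *GluRIIB* came last. *GluRIIA* had 15.86 (rank 29254 of 30000), and *GluRIIB* was the 1 gene of the 39 with no pooled call at all, with 0 calls in replicate 1 and 3 in replicate 2. Both are known from muscle, on the receiving side of the neuromuscular junction.

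Among adhesion, cytoskeleton and scaffold genes, *dlg1* carried the most IDR summits of the whole set, 4. It encodes Discs large, a scaffold of synapses and of epithelial septate junctions, and is thus not only a neuronal gene. The summit at +418 from a *dlg1* TSS (chrX 11390790) had 200.1 (rank 861), with 90.39 in replicate 1 and 108.0 in replicate 2. The one at +627 had 111.6 (11390999; 57.02 and 27.38), that at +1355 had 99.51 (11391727; 55.85 and 45.05) and that at −555 had 113.3 (11384325; 48.71 and 63.08). All 4 were nearest to *dlg1* and counted for no other protein-coding gene. The peaks at +418 and +627 overlapped, so the 4 summits need not be 4 separate sites. *Nrg*, the L1-type adhesion molecule neuroglian, which is likewise found in both neurons and epithelia, had a single IDR summit deep in an intron, 15972 bp from its TSS (chrX 8533713; 96.34, with 45.34 and 46.94), and nearest to *PIP82*, a gene inside *Nrg* on the other strand. *Nrg* also had 13 pairs of replicate calls within 200 bp, the most of any of the 39, and *dlg1* had 10.

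The 3 others of that class are mainly neuronal genes and had no IDR peak. *Fas2*, the NCAM-type adhesion molecule of axon bundles and the neuromuscular junction, had a strongest pooled signal of 46.00 in an intron (rank 6454), with 24.45 in replicate 1 and 18.98 in replicate 2. *Appl*, the fly homologue of the amyloid precursor protein, had 42.56 (rank 7064, with 32.19 and 13.75), at −30 from its neighbour *CG4293*. *futsch*, a microtubule-associated protein of axons and synapses, had 34.84 (rank 8890, with 16.27 and 13.83), at −215 from its own TSS. All 3 values lay below the 64.88 at which the IDR list ends, as they must, since that list holds the strongest pooled calls.

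In the relaxed lists, which are made long on purpose and hold background as well as sites, nearly all the genes had calls. A pooled call was found at 38 of 39 (97.4%, against 73.5% of all protein-coding genes), and the sum over length deciles was 36.3. Places called in both replicates with summits within 200 bp were found at 29 of 39 (74.4%, against 56.0%), with a sum over deciles of 31.1. By class these were 9 of 11 channels, 12 of 15 release and vesicle genes, 3 of 8 transmitter genes and 5 of 5 of the rest. At an own TSS, 31 of 39 had a pooled call (79.5%, against 55.8%; sum over deciles 28.4): 10 of 11 channels, 13 of 15 release and vesicle genes, 3 of 8 transmitter genes and 5 of 5 of the rest. Of the 10 channels with a pooled call at a promoter, 2 had one there in the IDR list.

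Per length, calls were sparse at these genes. The median was 1.62 pooled calls per 10 kb of gene and flanks, against 3.03 over all protein-coding genes, 1.95 against 3.19 in replicate 1, and 2.15 against 2.76 in replicate 2. By class the pooled median was 2.65 at release and vesicle genes, 1.5 at channels, 1.33 at adhesion, cytoskeleton and scaffold genes and 0.991 at transmitter genes. Within length classes, the summed density was 4.13 against 3.63 over all genes under 5 kb, 2.93 against 3.52 from 5 to 20 kb, 1.56 against 2.72 from 20 to 40 kb and 1.15 against 1.78 at 40 kb and over. The summed density was thus lower than that of all genes from 5 kb upwards, but the median over genes was not in every class: from 5 to 20 kb it was 3.55 calls per 10 kb against 3.21. Counted within the gene body alone, the median was 1.35 at the 39 genes and 0 over all protein-coding genes. Only 47.7% of all protein-coding genes had a pooled call in the body, so their median had to be 0. The body-only medians therefore do not say whether calls were sparser there, and no length-matched density was made for the body alone.

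Replicate 2 had more calls than replicate 1 at these genes, and more of the excess lay on the X chromosome. Counting a call once for each gene it falls in, the 10 genes on X had 61 calls in replicate 1 and 95 in replicate 2, and the 29 on other arms had 137 and 152. Over the whole lists X held 4753 calls in replicate 1 and 4973 in replicate 2. All 91 protein-coding genes of 40 kb and over on X had 1180 and 1476 calls, and the 8 of the 39 among them 42 and 77. The 370 of that length on other arms had 5276 and 5753, and the 5 of the 39 among them 37 and 52. Of the 39 genes, 20 had more calls in replicate 2, 12 had more in replicate 1 and 7 had equal numbers. *unc-13* went from 2 to 11, *Fas2* from 5 to 17 and *dlg1* from 11 to 18, while *Synj* went from 5 to 1. Sequencing depth is not known, and its part in these differences was not tested.

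**Figure D4:**
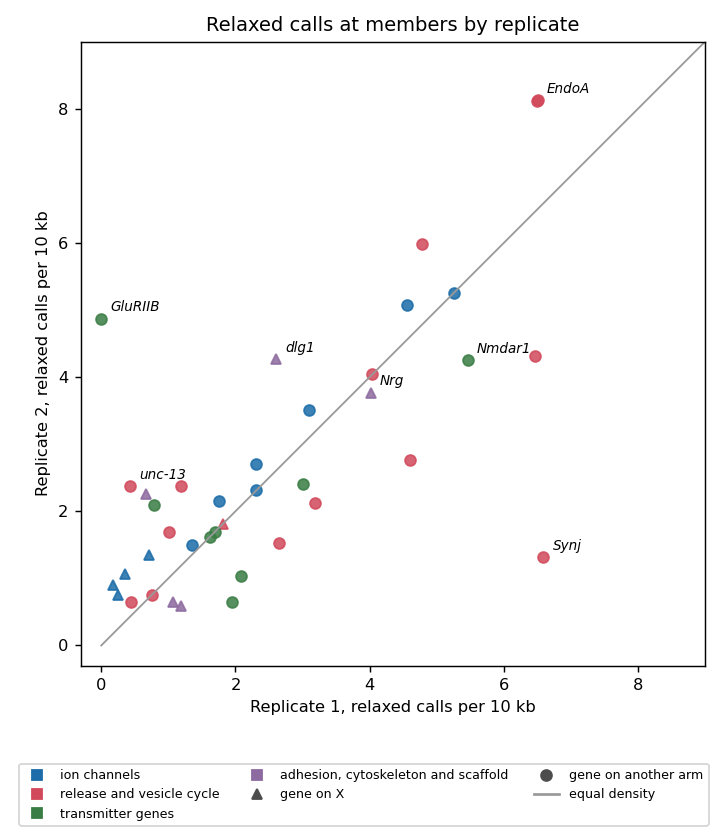
Relaxed calls per 10 kb of gene and flanks in replicate 1 (x axis) and replicate 2 (y axis) at each of the 39 genes, coloured by role, with triangles for genes on X and the line of equal density. *GluRIIB* has 0 calls in replicate 1 and 3 in replicate 2, *Synj* lies far below the line, and 6 of the 10 genes on X lie above it.

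To see whether the 39 stand for their pathway, 100 further genes of the same 4 roles were counted in the same way. Of these, 35 carried an IDR peak (35%, against 33.4% of all protein-coding genes), with a sum over length deciles of 47.5. At an own TSS 22 had one (22%, against 24.6%), with a sum of 30.3. Channels had 9 of 18 (sum 8.86), release and vesicle genes 14 of 33 (sum 14.7), transmitter genes 6 of 31 (sum 14.7) and the rest 6 of 18 (sum 9.24). The further channels were thus not below their sum, unlike the 11 channels of the 39. The strongest was *AP-2alpha*, a subunit of the clathrin adaptor AP-2, with 410.0 at a summit at −136 from its neighbour *ebi*, followed by *Slob*, a partner of the Slowpoke channel, with 267.1 past its 3′ end. *Snap29*, a SNARE of general membrane traffic, had 255.2 next to *CG5554*. The promoter peaks of 2 further genes had no nearer neighbour, *Nrx-1* (neurexin, 245.9 at +96) and *NaCP60E* (a cation channel of the sodium channel family, 241.1 at −67). *Amph* (amphiphysin) with 209.0 and *Tomosyn* with 208.3 had their strongest summit past the 3′ end, at the start of *CG45086* and of *CkIalpha*. *shot*, a linker of actin and microtubules, had 5 summits, the strongest with 191.0 at −87.

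Promoter peaks were missing at the transmitter genes of both lists. Of the 8 described above and the 31 further ones, 39 in all, 0 had an IDR summit within 500 bp of an own TSS. The share over all protein-coding genes was 24.6%, and the sum over length deciles was 12.2. *ChAT* and *VAChT* share their TSS and were counted as separate genes. An IDR peak in the body or flanks was found at 8 of them (20.5%, against 33.4% of all protein-coding genes), with a sum of 18.5. The further ones were the acetylcholine receptor genes *mAChR-A*, *nAChRalpha5*, *nAChRalpha6* and *nAChRalpha7*, the glutamate receptor gene *Nmdar2* and *Ace*, acetylcholinesterase. The summits at *nAChRalpha5*, *Nmdar2* and *Ace* lay past the 3′ end, that of *Nmdar2* at −15 from the neighbour *sta*. Among the further ones only *mAChR-A* and *nAChRalpha7* owned the nearest TSS. In the pooled relaxed list 13 had a call at an own TSS (33.3%, against 55.8%), with a sum of 28. Calls of both replicates within 200 bp were found at 16 (41%, against 56.0%), with a sum of 30. Release and vesicle genes, by the same counts over 48 genes, had 18 with an IDR summit at an own TSS (37.5%, against 24.6%), above the sum of 14.6. A pooled call there was found at 38 (79.2%, against 55.8%), with a sum of 33.5. Of the 48, however, 12 owned the nearest TSS of an IDR summit (25%, against 22.4% of all protein-coding genes), below the sum of 16.3. Of the 39 transmitter genes, 2 did (5.13%), with a sum of 14. The lists were written with earlier results of these data known and hold related genes, and no test between them was made.

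In sequence, the 25 windows around the summits held few of the 8 words searched. At least 1 match was found in 9 windows, and 16 held none, while 62.6% of all IDR windows held none. GATAAG, the GATA factor word, was in 4 windows (16.0%, against 8.84% of all 4344), at *Csp*, *Ih*, *KCNQ* and *shi*. TAATTA, the homeodomain core, was in 2 (8.00%, against 11%), at *Dap160* and *dlg1*. The words TATCGATA (known as bound by Dref, at *Rop*), GGTCACAC (at *EndoA*), CAGCTG (an E-box, at *Csp*), TGTTTAC (at *dlg1*) and CAGGTAG (known as bound by Zelda, at *Ih*) were in 1 window each (4%), against 5.92%, 3.22%, 8.79%, 5.11% and 0.783% of all windows, and GAGAGAG, the GAGA factor word, was in 0, against 1.75%. The median GC content was 39.1% in these windows, from 28.5% at *ChAT* to 58.9% at *Ih*, and 37.1% over all. A match is a run of letters and not a measured binding site.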

How the data were processed

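The deposited files are peak lists in narrowPeak layout from 2 ChIP-seq libraries of whole embryos. The authors deposited, for the dm6 build, relaxed calls for each replicate, relaxed calls for the pooled replicates and an IDR-thresholded list; per the deposited file descriptions, a control alignment served as background in calling. The deposited signal value is a score with no fixed scale and was used to rank calls within a list. The deposited −log10 q-value is constant in the IDR list and was not used there. Which aligner and which caller were run is not given in the sources used here. Read numbers were not used here, so depth is unknown, and 4 lists on dm3 were not used here.

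Summits were the interval start plus the deposited offset, and coordinates are dm6 and 1-based. Genes and TSS came from Ensembl release 115, which is on the same assembly; 99.83% of 30593 annotated start codons read as one in the RefSeq genome. A call counted for every gene whose body or 1 kb flanks held its summit, so 16 of the 25 summits counted for more than 1 protein-coding gene. Length deciles were set over all protein-coding genes, and the decile sums are no test. Densities divide calls by the gene plus 1 kb on each side. Names were given to every gene of the 39 with an IDR summit, the 10 others with the highest-ranked pooled call (the rest with their strongest signal), and the 8 further pathway genes of highest IDR signal; the other transmitter genes with a peak were named after their values were seen. Members and lists were chosen with earlier results of these data known. Alternatives changed the margin, the assignment of summits, the length of the lists, the replicates used, the promoter radius and the distance between replicate calls. Of the windows, 5 were not shown because they overlap a UTR. Counting was tested on simulated calls with planted answers. Scripts used Python 3.11.15, NumPy 2.4.6 and matplotlib 3.10.9.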

Additional observations from a re-analysis of the deposited data

How the results depend on the processing

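Of the values under other settings, 55 stayed close to those reported and 23 moved. Close means within 1.5-fold, or for the median density within 0.146, the standard deviation of the 2 replicates' medians. Reversal was not scored. The values judged were the genes' own and not their place beside all protein-coding genes, which did change. Some of the 55 could not move: the 4344 strongest pooled calls are the IDR list itself, and promoter counts do not depend on the margin. Counting summits in the gene body alone left 10 of the 39 genes (all protein-coding genes 11.7%), with 2 release and vesicle genes and 17 of the 100 further genes with a peak, and a margin of 5 kb gave 11 release and vesicle genes and 4 transmitter genes. Giving each summit to the nearest TSS left 8 of the 39 genes (20.5%, against 22.4%, so below where 38.5% was above 33.4%), with 2 channels, 0 transmitter genes and 1 adhesion, cytoskeleton or scaffold gene, and 21 further genes. With the strongest 2172 IDR peaks, 4 genes were left, 1 in each of the channel, release, transmitter and adhesion classes, with 1 at an own TSS, and 20 further genes. The median of pooled calls per 10 kb was 1.35 in the body alone. Over all protein-coding genes it was 0 there, since most had no pooled call in the body. The median was 2.02 with 5 kb (all protein-coding genes 3.02), 1.36 by nearest TSS (3.05) and 0.296 with the 10000 strongest calls (0.311). Leaving out each replicate in turn gave 1 to 2 transmitter genes and a median of 1.95 to 2.15 calls per 10 kb. The 4344 strongest calls of replicate 1 alone gave the same 15 genes, and those of replicate 2 alone gave 14, with 13 shared: *Rop* and *Nmdar1* were lost and *Shaw* was gained. The sum over length was 19.2 with 20 length classes and 17.9 with classes by number of TSS, both settings chosen after seeing the data. No paired analysis was possible because there is 1 group. Unknown depth and 2 libraries limit what a missing call says.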

Other observations

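Relaxed calls at the 39 genes fell in different places in the 2 replicates. Introns took 47.5% of calls in replicate 1 and 59.1% in replicate 2, against 33.1% and 39.7% over all protein-coding genes. 3′ UTRs took 3.03% and 9.72%, against 2.68% and 3.96%, and coding exons 7.07% and 4.05%, against 12.5% and 5.85%. The shares over all protein-coding genes were not matched for gene length. None of the 25 IDR summits lay in a UTR or coding exon outside a promoter, so these places were called in the relaxed lists only.

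Widening the margin from 1 to 5 kb brought 7 more of the 39 genes to an IDR peak, for 22 in all, while the share of all protein-coding genes rose to 52.1%. They were *Shal*, *nSyb*, *brp*, *Rim*, *Synj*, *VAChT* and *Gad1*. Neither *para*, *cac*, *Sh*, *eag* nor *slo* was among them, nor was either muscle glutamate receptor gene.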
